A study of Homo sapiens with 12 samples.

Results

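Interferon-stimulated genes are the genes that cells switch on when an interferon reaches its receptor. Their behaviour was followed here in A549 cells, a human lung adenocarcinoma line, through 43 genes given as a list of symbols: cytosolic RNA sensors, antiviral effectors, the transcription factors of the pathway, the ISG15 system and further well-known targets. All 43 symbols had a row among the 26334 genes counted. A filter on low counts kept 15352 genes for testing, among them 37 of the 43, and left out MX2, BST2, RSAD2, IFI44, IFI44L and XAF1. The question was which of these genes are induced by Cisplatin, a DNA-crosslinking drug, with or without depletion of RNF113A, a spliceosome-associated E3 ligase. The study holds 12 libraries in 4 conditions with 3 replicates each: shControl untreated, shControl with Cisplatin, shRNF113A untreated and shRNF113A with Cisplatin. The shControl cells carry a non-targeting hairpin and the shRNF113A cells one against RNF113A. All 4 conditions share infection with a lentivirus and 4 days of puromycin at 1 µg/ml, and no library comes from uninfected cells. Cisplatin was given, by the labels, at 25 µg/ml for 20 h, and untreated cells received none; other experiments of the study give the drug in µM, so the unit of this dose is in doubt. The data come from 1 cell line, and no library was made from cells treated with an interferon, so full induction was not measured here.

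Viral or displaced nucleic acid in the cytosol is recognised by sensors such as RIG-I, MDA5 and cGAS, which through adaptors and kinases switch on the interferon genes. Secreted type I interferon binds its receptor, and JAK kinases then switch on a complex, with STAT2 and IRF9 among its parts, that binds the interferon-stimulated response element (ISRE) of target promoters. Type II interferon acts through another promoter element, the gamma-activated site (GAS). IRF1 and IRF7 bind sites much like the ISRE and can drive some of the same genes.

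The libraries held 33859097 to 56071514 read pairs, of which 26220526 to 45721152 were counted on the strand of a gene. The share assigned to no gene was 14.0% to 22.6%, highest in the shRNF113A Cisplatin libraries. RNF113A had 743, 707 and 725 normalised counts in the shControl untreated libraries and 555, 572 and 612 in the shRNF113A ones, a log2 fold change of −0.31 (SE 0.09, adjusted p = 0.0247). With Cisplatin it had 1144, 1047 and 997 against 908, 855 and 1047, a log2 fold change of −0.14 (SE 0.09, adjusted p = 0.233), which did not pass. Normalised counts are read counts divided by the library's size factor, so they can be compared between libraries but not between genes of different length. Of the 8 markers of A549 and other epithelial cells all 8 passed the filter, with summed normalised counts of 805795 to 1137199 in shControl untreated and 916694 to 981624 in shRNF113A untreated libraries, and 456285 to 587765 and 400950 to 431820 with Cisplatin. Of the 6 leukocyte markers 1 passed, with sums of 42.9 to 167. Of the 4 fibroblast markers 2 passed, and their sums were 9.12 to 51.8 in shControl untreated and 62.5 to 99.5 in shRNF113A untreated libraries. Of the 3 endothelial markers 1 passed, with sums of 1.01 to 28.5. The sum hides markers that went opposite ways with depletion: EPCAM was higher, at 3.16 (SE 0.40) on the log2 scale untreated and 3.17 (SE 0.41) with Cisplatin, and AKR1B10 (−1.63 (SE 0.34) and −1.502 (SE 0.34)) and AKR1C1 (−1.72 (SE 0.10) and −1.51 (SE 0.10)) were lower, all 3 called in both treatments. LUM, a fibroblast marker, was called higher at 2.22 (SE 0.49) and 1.89 (SE 0.52). PDGFRB, the other fibroblast marker that passed, went the other way with Cisplatin. It had 17.2, 14.8 and 9.95 normalised counts in treated shControl and 5.68, 4.35 and 7.86 in treated shRNF113A libraries. CDH5, an endothelial marker, was called higher with depletion in treated cells, a call lost in 8 of 21 alternatives. The part of these shifts in the results was not tested. Replicate 2 of the shControl cells stood apart from replicates 1 and 3 both untreated and with Cisplatin, and results that turn on it are given with and without it. In whole cultures, fewer cells expressing a gene and less RNA per cell cannot be told apart.

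Promoter sequences show what many of these genes have in common. A window from 250 bases before to 50 after the transcription start was found in the RefSeq table (GRCh38.p14) for 35 of the 43 genes, DDX58 under its newer symbol RIGI. The ISRE core was searched as GAAA, any 2 bases and GAAA, or on the other strand as TTTC, any 2 bases and TTTC. It was found in 25 of the 35 genes (71.4%), against 4.38% of the 27305 genes of the table, any promoter of a gene counting. The GAS core, searched as TTCNNNGAA, which reads the same on both strands, was found in 11 of the 35 (31.4%), against 9.38% of all genes. Of the 10 genes with a promoter that Cisplatin raised in either shRNA background, 9 held an ISRE core, as did 2 of the 3 that Cisplatin lowered, 10 of the 17 that were tested and not called, and 4 of the 5 under the filter. A match describes these letters in this window and is not a measured binding site. Shown are 8 genes raised by Cisplatin, each as a window of 30 bases with the matched bases in capitals. Where matches overlap, as in ISG15 and TRIM21, the capitals run through both.
ISG15: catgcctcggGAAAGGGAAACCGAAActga
IFIT3: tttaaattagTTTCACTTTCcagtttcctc
TRIM21: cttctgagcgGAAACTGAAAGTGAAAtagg
DTX3L: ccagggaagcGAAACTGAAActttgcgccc
PARP14: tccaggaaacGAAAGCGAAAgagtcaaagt
IFI6: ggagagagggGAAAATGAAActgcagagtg
SAMD9: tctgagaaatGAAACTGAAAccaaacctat
IRF1: acagcctgatTTCCCCGAAatgacggcacg
The windows lie at chr1:1013374-1013403 (plus strand) for ISG15, chr10:89327865-89327894 (plus) for IFIT3, chr11:4393666-4393695 (minus) for TRIM21 and chr3:122564322-122564351 (plus) for DTX3L. Those of the others lie at chr3:122680800-122680829 (plus) for PARP14, chr1:27672288-27672317 (minus) for IFI6, chr7:93118096-93118125 (minus) for SAMD9 and chr5:132490878-132490907 (minus) for IRF1. IRF1 is the raised gene without an ISRE core, and its capitals mark a GAS core. The DTX3L match is shared with PARP9, which starts on the opposite strand and reads the same bases as their reverse complement.

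Genes that Cisplatin lowered, or that changed with RNF113A depletion, held such matches too.
DDX60: gaggagaaagGAAACCGAAActcccgccgg
EPSTI1: ctgattctgaGAAACCGAAActcagctgtt
IFIT1: cactttccccTTTCGGTTTCcctaggtttc
DDX60 lies at chr4:168318786-168318815 (minus), EPSTI1 at chr13:42992272-42992301 (minus) and IFIT1 at chr10:89392510-89392539 (plus), and all 3 are ISRE cores. DDX60 and EPSTI1 held the same 10 letters, GAAACCGAAA, which also stand within the ISG15 match.

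Levels of different genes were compared per length, in RPKM, the reads on a gene divided by the length of its exons and by the counted reads of the library. In untreated shControl cells LGALS3BP, a secreted galectin-binding glycoprotein, was the highest of the list at 65.7 ± 16.97 (SD, n = 3), and OAS1, which makes the 2′-5′-linked adenylates that activate RNase L, had 20.4. TRIM21, the cytosolic antibody receptor and ubiquitin ligase, had 9.24, ISG15 had 3.82 and IRF1 had 3.71 RPKM. With Cisplatin the levels in shControl cells were 24.2 for TRIM21, 28.1 for ISG15 and 19.8 for IRF1, and in shRNF113A cells they were 24.9, 40.2 and 20.0 RPKM. ISG15 thus moved from below OAS1 to a similar level per length in shControl cells (28.1 against 22.2 RPKM), whereas in shRNF113A cells with Cisplatin the order was 40.2 for ISG15 and 47.8 for OAS1. These orders were not tested.

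Cisplatin raised a subset of the list in both backgrounds. A gene was called changed at a Benjamini-Hochberg adjusted p under 0.05 in edgeR's quasi-likelihood test, over all 15352 genes, and a fold change of at least 2. In shControl cells 12 of the 37 genes were called (19.8% of all genes tested were), of which 9 rose (9.16% of all genes did) and 3 fell (10.6%). IFIT3, IRF1, IRF7, ISG15, TRIM21, TRIM22, DTX3L, PARP14 and IFI6 rose, and DDX60, CMPK2 and EPSTI1 fell. In shRNF113A cells 14 were called (23.1% of all genes), of which 12 rose (11.6%) and 2 fell (11.5%): the 9 above rose here too, with ISG20, SAMD9 and IFI27, and DDX60 and EPSTI1 fell. The 2 comparisons share no library. EPSTI1, among the falling genes of both, passed the filter only through untreated libraries, so the filter favoured its fall. At the adjusted p alone 20 genes rose and 3 fell in shControl cells (28.0% and 27.0% of all genes), and 22 rose and 3 fell in shRNF113A cells (32.4% and 27.8%). The median log2 fold change of the 37 genes was 0.30 in shControl cells, against −0.01 over all genes tested, and 0.58 in shRNF113A cells, against 0.06. In each background 28 of the 37 were higher with Cisplatin and 9 lower. The counts of the 3 Cisplatin libraries all lay above those of the untreated ones for 17 genes and below for 3 in shControl cells (27.9% and 28.1% of all genes), and for 22 and 6 in shRNF113A cells (37.3% and 36.9%). In the model with both terms and no interaction, Cisplatin changed 13 genes over both backgrounds (21.5% of all genes), 11 higher and 2 lower (10.3% and 11.2%). EPSTI1 was again among the lower ones. CMPK2, at −0.98 (SE 0.21, adjusted p = 0.000822, edgeR), lay just under the 2-fold limit. It was called lower with median ratio scaling and with DESeq2 (−1.01 in each).

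**Figure D1:**
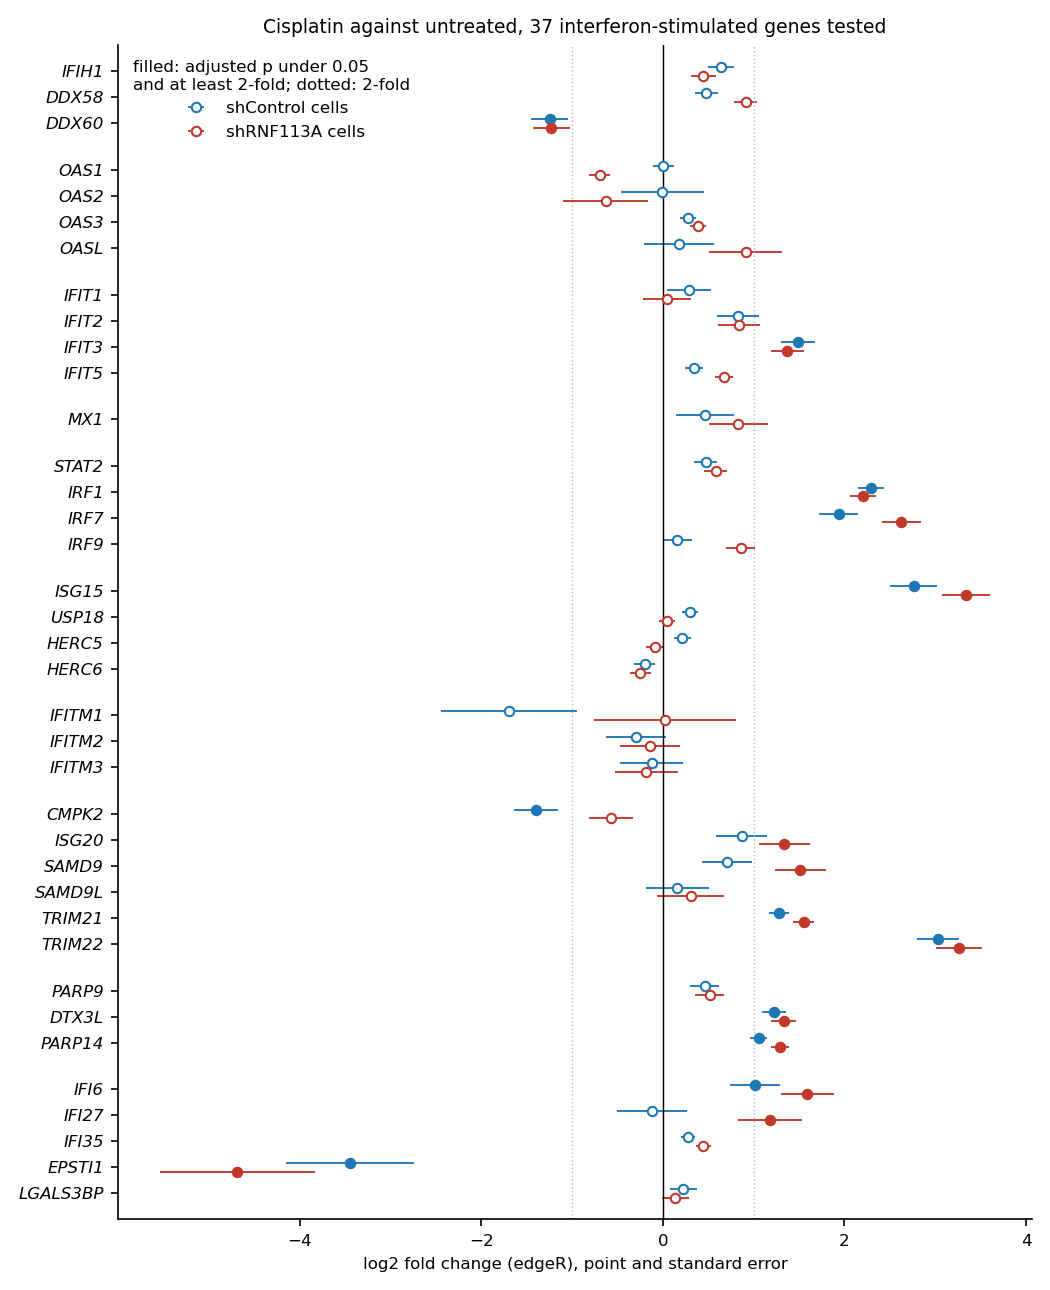
Log2 fold change of each of the 37 tested genes (points, with the standard error as bars) for Cisplatin against untreated in shControl cells (blue) and shRNF113A cells (red), grouped by role. Filled points passed an adjusted p under 0.05 and a 2-fold change. ISG15, TRIM22, IRF1 and IRF7 lie farthest to the right in both backgrounds and EPSTI1 farthest to the left.

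ISG15, the ubiquitin-like protein that is conjugated to target proteins, rose in all Cisplatin libraries. Its gene lies on chromosome 1 (plus strand, 948803 to 949920, hg19). It had 97.3, 84.2 and 129.9 normalised counts in untreated shControl libraries and 854, 589 and 649.6 with Cisplatin, a log2 fold change of 2.76 (SE 0.26, adjusted p = 2.82e-06). In shRNF113A libraries it had 85.5, 126 and 80.5 untreated and 892, 697 and 1285 with Cisplatin, a log2 fold change of 3.34 (SE 0.27, adjusted p = 6.03e-07). Untreated and treated libraries did not overlap in either background. The enzymes that act with ISG15 changed less. HERC5, its main ligase in human cells, had log2 fold changes of 0.21 (SE 0.10) and −0.08 (SE 0.10), and HERC6, a relative of HERC5, of −0.20 (SE 0.11) and −0.25 (SE 0.11), none past the adjusted p. USP18, which removes ISG15 from proteins and restrains the type I receptor, passed the adjusted p in shControl cells at 0.30 (SE 0.09, adjusted p = 0.0144) and had 0.04 (SE 0.09, adjusted p = 0.695) in shRNF113A cells.

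Among the transcription factors, IRF1 and IRF7 rose in both backgrounds. IRF1 (chromosome 5, minus strand, 131817301 to 131826490, hg19) had 645, 426 and 671 normalised counts in untreated and 2771, 2836 and 2829.6 in Cisplatin-treated shControl libraries, and 577, 630.1 and 639 against 2696, 2588 and 2951 in shRNF113A libraries. Its log2 fold changes were 2.29 (SE 0.14, adjusted p = 6.46e-08) and 2.20 (SE 0.14, adjusted p = 8.41e-08), and the 6 treated libraries lay close together, with an effect of depletion of 0.01 (SE 0.13, adjusted p = 0.968). IRF7, the factor that drives the genes of interferon alpha (chromosome 11, minus strand, 612553 to 615999, hg19), had 53.7, 76.8 and 75.6 against 245, 317 and 221 in shControl and 89.4, 126 and 98.4 against 584, 524 and 773 in shRNF113A libraries. The log2 fold changes were 1.94 (SE 0.22, adjusted p = 1.12e-05) and 2.63 (SE 0.21, adjusted p = 6.86e-07). Every treated shRNF113A library lay above every treated shControl library for IRF7. STAT2 and IRF9, which belong to the complex that binds the ISRE, moved less: STAT2 passed the adjusted p in both backgrounds at 0.47 (SE 0.13, adjusted p = 0.00755) and 0.58 (SE 0.13, adjusted p = 0.00173), and IRF9 in shRNF113A cells at 0.86 (SE 0.16, adjusted p = 0.000535), with 0.16 (SE 0.16, adjusted p = 0.409) in shControl cells.

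TRIM22, a RING ubiquitin ligase with antiviral activity, had the largest rise of the list in shControl cells. It had 27.4, 20.4 and 31.98 normalised counts untreated and 228, 164 and 255 with Cisplatin in shControl libraries, and 10.6, 13.3 and 14.5 against 111, 113 and 134 in shRNF113A libraries. The log2 fold changes were 3.03 (SE 0.23, adjusted p = 4.11e-07) and 3.26 (SE 0.25, adjusted p = 4.62e-07), from a low level in untreated cells. TRIM21 had 735, 658 and 665 against 1794, 1408 and 1751 in shControl and 547, 593 and 587 against 1561, 1487 and 1852 in shRNF113A libraries, with log2 fold changes of 1.28 (SE 0.11) and 1.55 (SE 0.11). Untreated and treated libraries stood apart for both genes in both backgrounds. TRIM22 overlaps OR56B1 on its own strand, so reads in the shared bases may be left out of its count.

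The genes of the PARP9 and DTX3L complex, a mono-ADP-ribosylating enzyme and its ubiquitin ligase partner, start next to each other in opposite directions. DTX3L had 819, 938 and 745 normalised counts in untreated and 2124, 1617 and 2051 in Cisplatin-treated shControl libraries, and 859.9, 952 and 994 against 2034, 2145 and 2659 in shRNF113A libraries. Its log2 fold changes were 1.22 (SE 0.14, adjusted p = 1.01e-05) and 1.33 (SE 0.14, adjusted p = 4.34e-06). PARP9 passed the adjusted p in both backgrounds with smaller log2 fold changes of 0.46 (SE 0.16, adjusted p = 0.027) and 0.52 (SE 0.16, adjusted p = 0.0141), and was not called. PARP14, a neighbouring gene of the same enzyme family, had 1378, 1422 and 1365 against 3037, 2491 and 3056 in shControl and 1507, 1577 and 1315 against 3386, 3400.4 and 3632 in shRNF113A libraries. Its log2 fold changes were 1.06 (SE 0.09, adjusted p = 1.68e-06) and 1.29 (SE 0.10, adjusted p = 3.13e-07), and no treated library reached down to an untreated one.

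The 4 IFIT genes tested, whose proteins bind viral RNA, lie side by side on chromosome 10 and did not all pass the test. IFIT3 had 115, 153 and 133 normalised counts untreated and 435, 267 and 411 with Cisplatin in shControl libraries, and 122, 119.6 and 124 against 279, 299.8 and 338 in shRNF113A libraries. Its log2 fold changes were 1.49 (SE 0.18, adjusted p = 2.64e-05) and 1.37 (SE 0.19, adjusted p = 4.65e-05), and the treated libraries lay above the untreated ones in both backgrounds. IFIT2 passed the adjusted p at 0.82 (SE 0.23, adjusted p = 0.00953) and 0.84 (SE 0.23, adjusted p = 0.00691), under the 2-fold limit. Without shControl untreated replicate 2, the highest of its group for IFIT2, the value in shControl cells was 1.06, and without shControl Cisplatin replicate 2, the lowest of its group, it was 1.04, both past the 2-fold limit. IFIT5 passed the adjusted p at 0.34 (SE 0.10) and 0.68 (SE 0.10). IFIT1 did not, with 0.29 (SE 0.24, adjusted p = 0.332) and 0.05 (SE 0.26, adjusted p = 0.891).

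IFI6, a membrane protein of the endoplasmic reticulum that limits flavivirus replication, had 108, 235 and 104 normalised counts in untreated and 278, 356 and 266 in Cisplatin-treated shControl libraries. In shRNF113A libraries it had 86.5, 102 and 89.5 untreated and 239.6, 241 and 334 with Cisplatin. The log2 fold changes were 1.02 (SE 0.28, adjusted p = 0.0082) and 1.59 (SE 0.29, adjusted p = 0.00047). The value in shControl cells lay at the 2-fold limit. It was 0.83 without shControl untreated replicate 1, 0.81 without replicate 3 and 0.88 without shControl Cisplatin replicate 2. The call was lost each time, as it was with the HTSeq counts of exonic reads alone (0.95). In untreated shControl cells replicate 2 had more than the other two, and the untreated and treated libraries still did not overlap.

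**Figure D2:**
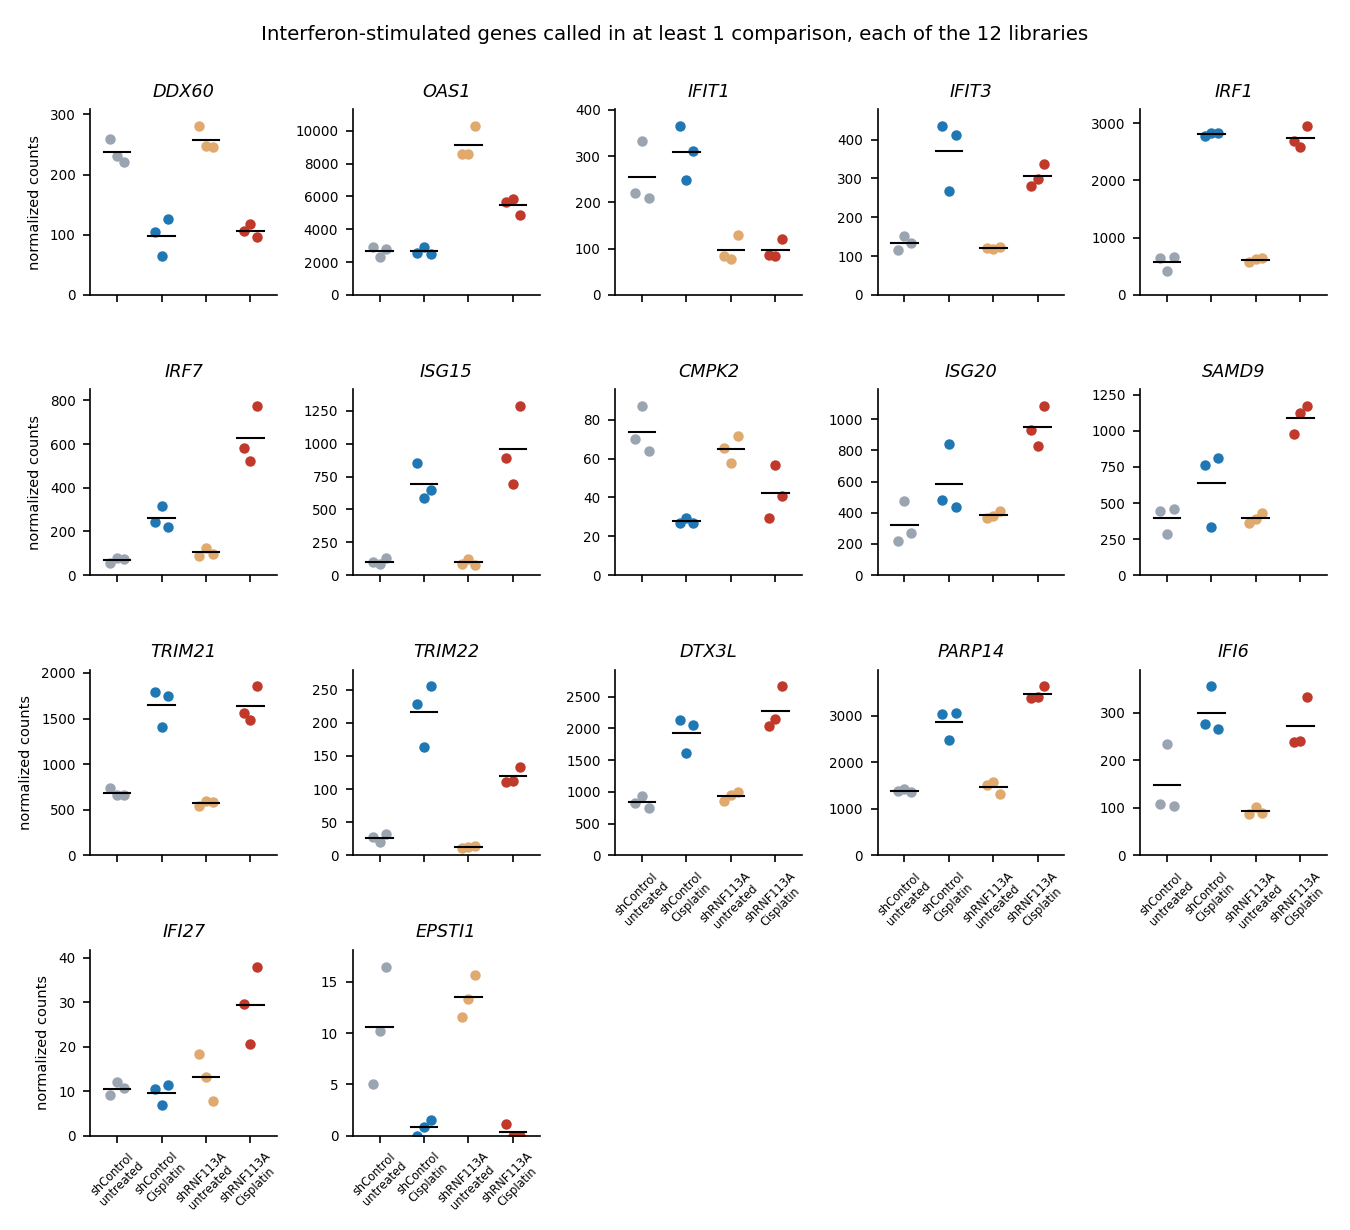
Normalised counts (vertical axes, one panel per gene) of the 17 genes called in at least 1 of the 5 comparisons, each point 1 of the 12 libraries, grouped by condition, with lines at the group means. ISG15, IRF1, IRF7, TRIM21, TRIM22, DTX3L, PARP14 and IFIT3 are higher in every Cisplatin library than in every untreated one of the same shRNA, DDX60 is lower in both, and OAS1 and IFIT1 separate by shRNA.

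ISG20, SAMD9 and IFI27 were called in shRNF113A cells and not in shControl cells, and for none of them did the test of the difference between the backgrounds pass. ISG20, a 3′ to 5′ exonuclease that degrades RNA, had 218, 476 and 272 normalised counts in untreated and 483, 837 and 436 in treated shControl libraries, and 369, 381 and 412 against 931, 826 and 1082 in shRNF113A libraries. The log2 fold changes were 0.87 (SE 0.28, adjusted p = 0.0196) and 1.34 (SE 0.28, adjusted p = 0.00132), and their difference was 0.47 (SE 0.39, adjusted p = 0.542). Replicate 2 was the highest of both shControl groups, so that they overlapped, and without the untreated one the log2 fold change in shControl cells was 1.27. ISG20 was then called there (adjusted p = 0.00077, edgeR), as it was without shControl Cisplatin replicate 1 (1.003) or 3 (1.06). SAMD9, which restricts poxvirus replication, had 442, 287 and 457 against 762, 332 and 815 in shControl and 360.3, 391 and 431 against 976, 1122 and 1170.2 in shRNF113A libraries. The log2 fold changes were 0.70 (SE 0.27, adjusted p = 0.0446) and 1.52 (SE 0.28, adjusted p = 0.00047), with a difference of 0.81 (SE 0.39, adjusted p = 0.248). Without shControl Cisplatin replicate 2, the low library of its group, SAMD9 rose by 1.02 in shControl cells and was called there too.

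IFI27, a small mitochondrial protein gene strongly induced by interferon in many tissues, was near the lower end of what the depth shows. It had 9.12, 12.03 and 10.7 normalised counts in untreated and 10.5, 6.98 and 11.5 in treated shControl libraries, and 18.3, 13.3 and 7.83 against 29.5, 20.6 and 38.00 in shRNF113A libraries. The log2 fold changes were −0.12 (SE 0.39, adjusted p = 0.811) and 1.18 (SE 0.35, adjusted p = 0.011), and the difference of 1.30 (SE 0.52, adjusted p = 0.172) did not pass. The treated shRNF113A libraries lay above all the others. The value in shRNF113A cells fell to 0.93 without shRNF113A untreated replicate 3 and to 0.96 without shRNF113A Cisplatin replicate 3, and the call was lost. With the HTSeq counts of exonic reads alone it was 0.80 (adjusted p = 0.07, edgeR), also not called. In IFI27 the intronic reads per 100 exonic ones were 94.1, 142 and 186 in shRNF113A untreated and 395, 507 and 512 in shRNF113A Cisplatin libraries.

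The 3 genes that fell with Cisplatin have different roles. DDX60, a putative RNA helicase (chromosome 4, minus strand, 169137444 to 169239958, hg19), had 258, 230.4 and 221 normalised counts in untreated and 104, 65.4 and 125 in treated shControl libraries. In shRNF113A libraries it had 281, 248 and 246 untreated and 106, 117 and 95.7 with Cisplatin, and the log2 fold changes were −1.25 (SE 0.20, adjusted p = 0.000218) and −1.23 (SE 0.20, adjusted p = 0.000224). The groups did not overlap in either background. CMPK2, a mitochondrial nucleotide kinase, had 69.9, 86.96 and 63.97 against 26.7, 29.7 and 26.8 in shControl and 65.3, 57.9 and 71.6 against 29.5, 56.5 and 40.6 in shRNF113A libraries. It fell in shControl cells, with a log2 fold change of −1.39 (SE 0.24, adjusted p = 0.000384), and had −0.57 (SE 0.24, adjusted p = 0.0587) in shRNF113A cells, with a difference of 0.82 (SE 0.34, adjusted p = 0.184). EPSTI1 had few counts throughout, 5.07, 10.2 and 16.5 normalised counts against 0, 0.872 and 1.53 in shControl and 11.5, 13.3 and 15.7 against 1.14, 0 and 0 in shRNF113A libraries. Over the 3 libraries of each condition, 3 reads with Cisplatin stood against 33 without it in shControl cells, a normalised ratio of 8.05% (95% interval 1.58 to 25.7), and 1 against 40 in shRNF113A cells, 2.91% (0.072 to 17.2). The intervals are exact binomial ones and cover counting error only. EPSTI1 passed the test in both backgrounds (adjusted p = 0.00126 and 0.000457, edgeR's quasi-likelihood test). It reached the limit of the filter in 5 libraries, all of them untreated, so a gene this low had to be higher there to be tested at all.

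The other RNA sensors of the list were higher with Cisplatin. DDX58, which encodes RIG-I, the sensor of RNA with a 5′ triphosphate, had 395, 449 and 381 normalised counts against 568, 459.6 and 663 in shControl and 326, 301 and 344 against 578, 589 and 599 in shRNF113A libraries. It passed the adjusted p at 0.48 (SE 0.13, adjusted p = 0.0073) and 0.91 (SE 0.13, adjusted p = 7.42e-05), under 2-fold. IFIH1, which encodes MDA5, the sensor of long double-stranded RNA, passed it at 0.64 (SE 0.14, adjusted p = 0.0022) and 0.45 (SE 0.14, adjusted p = 0.0158). Treated libraries lay above untreated ones for DDX58 and IFIH1 in both backgrounds. Of the genes of the OAS family, OAS3 passed the adjusted p at 0.28 (SE 0.09) and 0.39 (SE 0.09). OAS1 was lower at the adjusted p in shRNF113A cells, at −0.70 (SE 0.11, adjusted p = 0.000189), and had 0.01 (SE 0.11, adjusted p = 0.963) in shControl cells, and its counts are given with the effect of depletion. OAS2 and OASL, both with fewer than 50 normalised counts in every library, did not pass in either background. MX1, a dynamin-like antiviral GTPase, passed the adjusted p in shRNF113A cells at 0.83 (SE 0.33, adjusted p = 0.0425), with 0.46 (SE 0.32, adjusted p = 0.242) in shControl cells.

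The membrane factors and the remaining genes were not called with Cisplatin. IFITM1, IFITM2 and IFITM3, which hinder the fusion of viruses with cell membranes, had log2 fold changes of −1.69 (SE 0.75), −0.30 (SE 0.33) and −0.12 (SE 0.35) in shControl cells and of 0.03 (SE 0.78), −0.15 (SE 0.33) and −0.18 (SE 0.34) in shRNF113A cells, none past the adjusted p. IFITM1 had 6.08, 41.6 and 5.82 normalised counts in untreated and 4.77, 8.72 and 3.06 in treated shControl libraries. Its fall thus rests on untreated replicate 2. With the replicate number as a block it was called at −1.56 (SE 0.49, adjusted p = 0.0115, edgeR). It was also called without untreated replicate 1 (−2.09) or 3 (−2.11), which keeps replicate 2. The replicate numbers were not shown to be pairs. IFI35 passed it at 0.28 (SE 0.08) and 0.45 (SE 0.08). SAMD9L, the relative of SAMD9, had 0.16 (SE 0.35) and 0.31 (SE 0.37), and LGALS3BP had 0.22 (SE 0.15) and 0.13 (SE 0.15), none past it.

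The 6 genes under the filter had 1 read for XAF1, 13 for IFI44L, 31 for MX2, 36 for RSAD2, 39 for BST2 and 79 for IFI44 over all 12 libraries together. RSAD2 encodes viperin and BST2 encodes tetherin, both among the classical interferon targets. MX2 had 1, 15 and 5 reads in untreated and 0, 5 and 1 in treated shControl libraries, and 2, 1 and 1 against 0, 0 and 0 in shRNF113A libraries, so no Cisplatin library held more than 5. With 3 reads taken as the smallest detectable count among the 26220526 to 45721152 counted reads of a library, levels of these genes below that were not detectable.

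By the adjusted p with the 2-fold limit, genes of the list differed between shRNF113A and shControl cells about as often as all genes tested. These differences are worded here as effects of depletion. Whether they come from loss of RNF113A, from the hairpin or from other differences between the cells was not tested. In untreated cells 3 of the 37 were called (8.66% of all genes tested): OAS1 rose (3.70% of all genes did), and IFIT1 and TRIM22 fell (4.96%). In Cisplatin-treated cells 4 were called (12.3%): OAS1, IRF7 and IFI27 rose (6.90%) and IFIT1 fell (5.42%). At the adjusted p alone 3 rose and 5 fell in untreated cells (12.8% and 14.6% of all genes), and 9 rose and 4 fell in treated cells (21.1% and 21.8%). The median log2 fold change was 0.07 in untreated cells, against 0.00 over all genes tested, and 0.22 in treated cells, against −0.01. The shRNF113A libraries all lay above the shControl ones for 5 genes and below for 9 in untreated cells (20.9% and 22.2% of all genes), and for 12 and 6 in treated cells (25.7% and 31.9%). Over both treatments, in the model without an interaction, 3 genes were called (11.0% of all genes). OAS1 and IFI27 were higher and IFIT1 was lower (5.47% and 5.52%). IRF7, at 0.997 (SE 0.17, adjusted p = 0.000514, edgeR), lay just under the 2-fold limit. It was called in several alternatives, among them scaling by library size only (1.01). The call of IFI27 was lost in 8 of 20 alternatives, at 0.83 to 0.99: with median ratio scaling, with DESeq2, and without any of the shControl Cisplatin replicates, shRNF113A untreated replicate 1 or shRNF113A Cisplatin replicate 1 or 3. These comparisons share libraries with those of Cisplatin. The counts rose when replicate 2 of the shControl cells was left out: 5 genes were called in untreated cells without shControl untreated replicate 2, 8 in treated cells without shControl Cisplatin replicate 2, and 5 over both treatments without the former. The shares of all genes under these alternatives are not given, so the rise is not shown to be particular to the list.

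**Figure D3:**
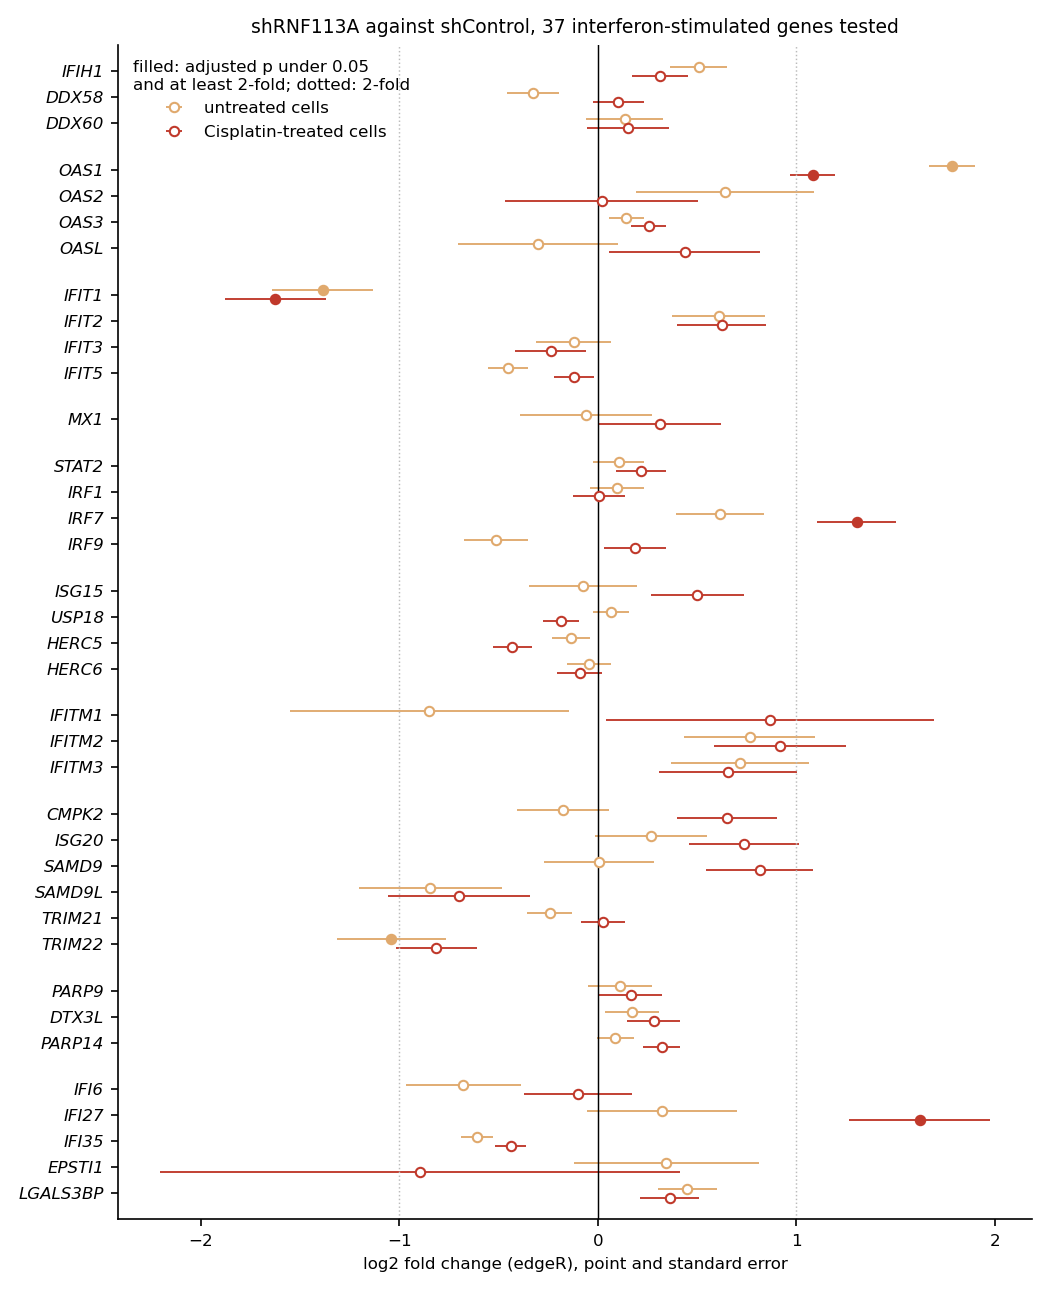
Log2 fold change of each of the 37 tested genes (points, with the standard error as bars) for shRNF113A against shControl in untreated cells (tan) and Cisplatin-treated cells (red). Filled points passed an adjusted p under 0.05 and a 2-fold change. OAS1 is filled on the right and IFIT1 on the left in both treatments. IRF7 and IFI27 are also filled on the right in Cisplatin-treated cells, and TRIM22 on the left in untreated cells.

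OAS1 was called higher with depletion in both treatments (chromosome 12, plus strand, 113344582 to 113369990, hg19). It had 2952, 2289.7 and 2773 normalised counts in the shControl untreated libraries and 8568, 8596 and 10294 in the shRNF113A untreated ones, a log2 fold change of 1.79 (SE 0.12, adjusted p = 1.34e-06). With Cisplatin it had 2549, 2939 and 2485 against 5684, 5849 and 4864, a log2 fold change of 1.08 (SE 0.11, adjusted p = 3.57e-05). The shRNF113A libraries lay above the shControl ones in both treatments, and within the shRNF113A cells the treated libraries lay below the untreated ones. The effect in treated cells was at the 2-fold limit, with 0.9991 without shControl Cisplatin replicate 1, 0.98 without replicate 3 and 0.98 without shRNF113A Cisplatin replicate 2, and the call was lost while the adjusted p stayed at or under 0.00044. OAS3, the neighbouring gene, had 0.14 (SE 0.09) in untreated and 0.26 (SE 0.09) in treated cells.

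IFIT1 moved the other way. It had 221, 334 and 210.3 normalised counts in shControl untreated and 84.5, 77.8 and 129.7 in shRNF113A untreated libraries, a log2 fold change of −1.39 (SE 0.25, adjusted p = 0.00185). With Cisplatin it had 365, 249 and 311 against 87.4, 83.7 and 121, a log2 fold change of −1.63 (SE 0.25, adjusted p = 0.000429), and the shRNF113A libraries lay below the shControl ones in both treatments. Of its neighbours, IFIT2 had 0.61 (SE 0.23, adjusted p = 0.0728) and 0.62 (SE 0.23, adjusted p = 0.0413), and IFIT3 had −0.12 (SE 0.19, adjusted p = 0.667) and −0.24 (SE 0.18, adjusted p = 0.3). IFIT5 passed the adjusted p in untreated cells at −0.45 (SE 0.10, adjusted p = 0.00595). TRIM22 fell in untreated cells at −1.04 (SE 0.27, adjusted p = 0.0145) and passed the adjusted p in treated cells at −0.81 (SE 0.20, adjusted p = 0.00725), with counts that did not overlap in either treatment. Without shControl untreated replicate 3 its value in untreated cells was −0.88 and without shRNF113A untreated replicate 1 it was −0.92. The call was lost each time, as it was with HTSeq exonic counts (−0.96).

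IRF7 and IFI27 were higher with depletion in Cisplatin-treated cells, at 1.31 (SE 0.20, adjusted p = 0.000382) and 1.62 (SE 0.36, adjusted p = 0.00333). In untreated cells the values were 0.61 (SE 0.22, adjusted p = 0.0579) and 0.32 (SE 0.38, adjusted p = 0.556). The difference between the treatments is the interaction, 0.69 (SE 0.30, adjusted p = 0.202) for IRF7, which did not pass. IFI35 was lower with depletion in both treatments at the adjusted p, with −0.61 (SE 0.08, adjusted p = 0.000194) and −0.44 (SE 0.08, adjusted p = 0.00101) and no overlap. IRF9 passed the adjusted p in untreated cells at −0.51 (SE 0.16, adjusted p = 0.0317), and HERC5 in treated cells at −0.43 (SE 0.10, adjusted p = 0.0041).

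The IFITM genes, ISG20 and SAMD9L depended on the replicate that stood apart. IFITM2 had 506, 1512 and 786 normalised counts in shControl untreated and 1476, 1436 and 1839 in shRNF113A untreated libraries, a log2 fold change of 0.77 (SE 0.33, adjusted p = 0.106). Without shControl untreated replicate 2 it was 1.30 and called. With Cisplatin IFITM2 had 537, 1059.6 and 669.5 against 1318, 1255 and 1583 and passed the adjusted p at 0.92 (SE 0.33, adjusted p = 0.0421), and without shControl Cisplatin replicate 2 the value was 1.19 and called. IFITM3 had 122, 399.7 and 217 against 354, 393 and 464 untreated, at 0.72 (SE 0.35, adjusted p = 0.145), and 1.26 without shControl untreated replicate 2. ISG20 had 0.74 (SE 0.28, adjusted p = 0.0476) in treated cells, and 1.04 without shControl Cisplatin replicate 2. SAMD9L had −0.70 (SE 0.36, adjusted p = 0.134) there, and −1.12 without that library, and TRIM22 reached −1.03. IFITM1, IFITM2 and IFITM3 are close paralogs, so that their shared reads are counted with uncertainty, and IFITM2 overlaps IFITM1 on the same strand.

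The interaction asks whether the Cisplatin effect differed between shRNF113A and shControl cells. No gene of the list was called (1.28% of all genes tested were), and none by DESeq2 either. At the adjusted p alone 1 gene passed (4.25% of all genes), OAS1 at −0.70 (SE 0.16, adjusted p = 0.0314), and 7 had an unadjusted p under 0.05 (21.6% of all genes). For OAS1 the adjusted p lay between 0.0547 and 0.0847 in 6 of 22 alternatives, each of them leaving out 1 library: shControl untreated replicate 3, any of the shRNF113A untreated replicates, or shRNF113A Cisplatin replicate 1 or 3. The other 6 were DDX58, IFIT5, IRF7, IRF9, CMPK2 and IFI27, each with the higher Cisplatin effect in shRNF113A cells, and IRF9 had 0.70 (SE 0.22, adjusted p = 0.0958). ISG15 had 0.58 (SE 0.36, adjusted p = 0.388).

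The other genes of interferon production and signalling were taken as a list of 43, of which 30 passed the filter. Of the ligands, IFNB1, IFNA1, IFNA2, IFNW1, IFNK, IFNL1 and IFNL2 had 0 reads in all 12 libraries, IFNG had 2 reads in all and IFNL3 had 1. A count of 0 allows up to 3 reads in a library. IFNE, an interferon of epithelia, was the ligand above the filter. It had 13.2, 14.8 and 16.5 normalised counts in untreated and 16.2, 14.8 and 15.3 in treated shControl libraries, and 26.9, 33.2 and 21.2 against 54.5, 44.5 and 60.3 in shRNF113A libraries. It rose with Cisplatin in shRNF113A cells at 1.004 (SE 0.23, adjusted p = 0.00248), at the 2-fold limit, and was higher with depletion in treated cells at 1.81 (SE 0.24, adjusted p = 0.000156). The treated shRNF113A libraries lay above all the others. In 15 of 23 alternatives the Cisplatin effect on IFNE in shRNF113A cells was under 2-fold, at the lowest 0.86 on the log2 scale without shRNF113A untreated replicate 3.

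Among the sensors and adaptors, Cisplatin raised several in both backgrounds. TLR3, the endosomal receptor for double-stranded RNA, had 81.1, 87.9 and 83.4 normalised counts against 749.9, 508 and 652 in shControl and 82.6, 88.2 and 93.9 against 241, 295 and 309 in shRNF113A libraries. Its log2 fold changes were 2.93 (SE 0.16, adjusted p = 3.19e-08) and 1.72 (SE 0.16, adjusted p = 2.21e-06), and the difference of −1.21 (SE 0.22, adjusted p = 0.0159) was called. TICAM1, the adaptor of TLR3, rose by 1.25 (SE 0.14) and 1.62 (SE 0.14) on the log2 scale. IFI16, a nuclear DNA sensor, had 61.8, 61.98 and 53.3 against 468, 447 and 552 in shControl and 64.4, 51.2 and 51.4 against 303, 238 and 453 in shRNF113A libraries, with log2 fold changes of 3.06 (SE 0.23, adjusted p = 3.34e-07) and 2.61 (SE 0.23, adjusted p = 1.18e-06). TMEM173, which encodes STING, the adaptor of cGAS, was called in shControl cells at 1.03 (SE 0.17, adjusted p = 0.000231) and had 0.45 (SE 0.17, adjusted p = 0.0334) in shRNF113A cells. The call of TMEM173 was lost without shControl untreated replicate 2 (0.95) or shControl Cisplatin replicate 1 (0.99), and with HTSeq exonic counts (0.90). The change was under 2-fold each time.

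DHX58, which encodes LGP2, the third member of the RIG-I family, had 7.09, 10.2 and 6.79 normalised counts against 9.54, 20.1 and 18.4 in shControl and 3.84, 8.54 and 4.47 against 54.5, 41.3 and 72.1 in shRNF113A libraries. Its log2 fold changes were 1.004 (SE 0.40, adjusted p = 0.0492) and 3.32 (SE 0.40, adjusted p = 1.67e-05), and their difference was 2.31 (SE 0.58, adjusted p = 0.0453). DHX58 reached the limit of the filter in 1 shControl untreated, 3 shControl Cisplatin, 0 shRNF113A untreated and 3 shRNF113A Cisplatin libraries. It was thus tested only through its Cisplatin libraries, so the filter favoured its rises. The treated shRNF113A libraries lay above all the others. The call in shControl cells was lost in 14 of 22 alternatives, the replicate block among them (0.998), and the call of the difference in 12 of 21, where it was 2.01 to 2.76 with an adjusted p of 0.05002 to 0.125 (edgeR). The first was also lost without shControl untreated replicate 1 or 3, shControl Cisplatin replicate 2 or 3, shRNF113A untreated replicate 1 or 3, or shRNF113A Cisplatin replicate 1 (0.83 to 1.01). For the difference, 10 of the 12 left out 1 library (any but replicate 2 of the Cisplatin-treated shControl or shRNF113A cells). SOCS1, the feedback inhibitor of JAK kinases, rose in both backgrounds at 1.68 (SE 0.58, adjusted p = 0.0279) and 3.06 (SE 0.62, adjusted p = 0.00106), with 10.1, 53.7 and 5.82 normalised counts against 77.3, 93.3 and 54.3 and 21.1, 9.49 and 12.3 against 111, 85.8 and 153. In shControl cells its call was lost in 5 of 22 alternatives, among them those without shControl untreated replicate 1 (1.33) or 3 (1.22) and without shControl Cisplatin replicate 1 (1.67) or 2 (1.49), where the adjusted p passed 0.05.

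In all, 6 of the 30 genes rose and none fell with Cisplatin in shControl cells (9.16% and 10.6% of all genes tested), and 6 rose and none fell in shRNF113A cells (11.6% and 11.5%), where TMEM173 was no longer called and IFNE was. DHX58, tested only through its Cisplatin libraries, is among the rising genes of both backgrounds. At the adjusted p alone 17 were higher and 5 lower in shControl cells (28.0% and 27.0% of all genes), the latter being IFNAR2, JAK1, JAK2, PIAS1 and PTPN2, and 17 were higher and 2 lower in shRNF113A cells (32.4% and 27.8%), JAK1 and PTPN2. The median log2 fold changes over the 30 were 0.34 and 0.53, against −0.01 and 0.06 over all genes.

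**Figure D4:**
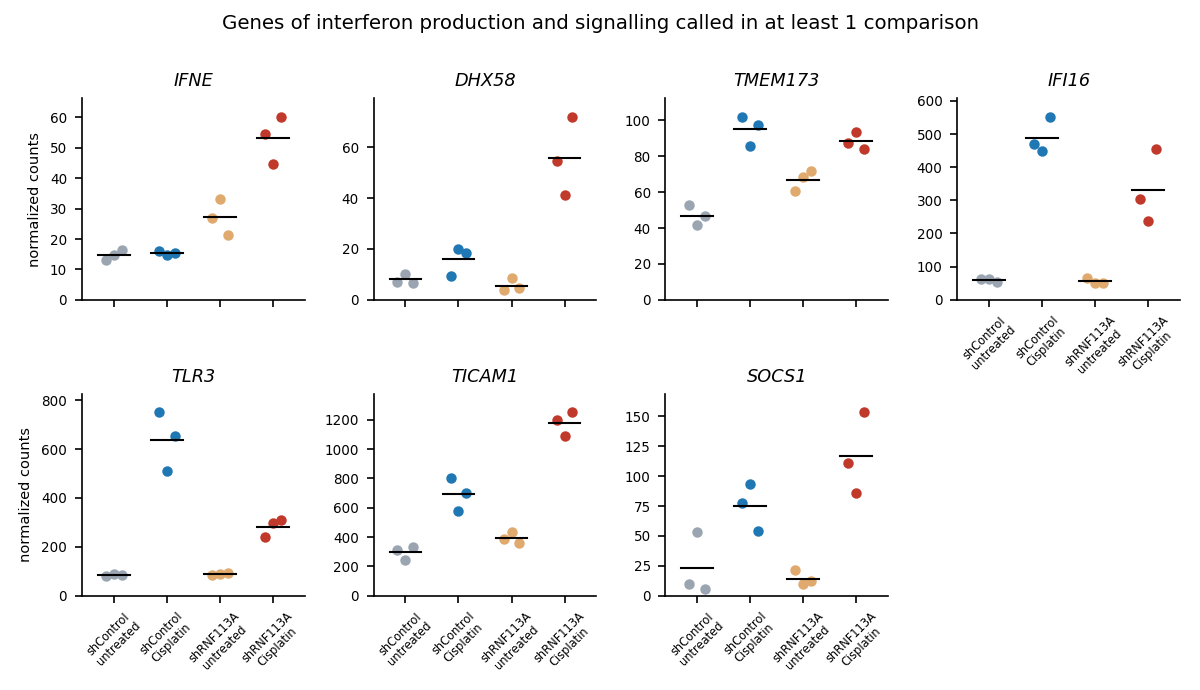
Normalised counts (vertical axes, one panel per gene) of 7 genes of interferon production and signalling in each of the 12 libraries (points), grouped by condition, with lines at the group means. IFI16 and TLR3 are higher in all Cisplatin libraries, and IFNE and DHX58 are highest in the shRNF113A Cisplatin libraries.

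A further list of 40 genes known to respond to interferon, with no gene in common with the lists above, had 35 genes tested. With Cisplatin 13 rose and none fell in shControl cells (9.16% and 10.6% of all genes tested), and 18 rose and none fell in shRNF113A cells (11.6% and 11.5%), with median log2 fold changes of 0.85 and 1.0001 over the 35, against −0.01 and 0.06 over all genes. The 13 called in both were PML, GBP3, TAP1, PSMB8, LAMP3, APOL1, APOL6, SLFN5, ZNFX1, BATF2, PARP10, HELZ2 and TRANK1. In shControl cells APOL1 was under 2-fold with the replicate block (0.95), with HTSeq exonic counts (0.98) and without shControl Cisplatin replicate 1 (0.80) or 3 (0.93), and GBP3 without the latter (0.99). LAMP3 had log2 fold changes of 4.01 (SE 0.30) and 3.80 (SE 0.31), TRANK1 of 3.74 (SE 0.20) and 2.95 (SE 0.19) and PARP10 of 2.92 (SE 0.20) and 3.39 (SE 0.21). TAP1, the peptide transporter of antigen presentation, had 2.16 (SE 0.13) and 2.25 (SE 0.13). SP110, UBE2L6, CD274, PARP12 and C19orf66 were called in shRNF113A cells alone, and the interaction of none of them passed. These calls were lost in 18 of 23 alternatives for C19orf66 (0.95 to 0.999), 6 for PARP12 (0.98 to 0.9999), 4 for SP110 (0.96 to 0.999) and 1 for UBE2L6 (0.98, without shRNF113A Cisplatin replicate 1), each time at under 2-fold. CD274 lost its adjusted p without shRNF113A untreated replicate 1 (1.20) or 2 (1.31) or shRNF113A Cisplatin replicate 3 (1.11). With depletion UBE2L6, the conjugating enzyme of ISG15, was called lower in untreated cells at −1.25 (SE 0.10, adjusted p = 4e-06), and BATF2 was called higher in both treatments at 1.11 (SE 0.27) and 1.15 (SE 0.25). The BATF2 call in untreated cells was lost without replicate 1 of untreated shControl (0.84) or shRNF113A cells (0.996). The genes of all 3 lists were chosen with earlier results of these data known.

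Reads in introns were compared with reads in exons of the same gene, since RNF113A is a subunit of the spliceosome. The ratio of intronic to exonic reads over all genes was 4.55% to 7.71% in shControl libraries, 6.10% to 7.10% in shRNF113A untreated and 11.0% to 11.5% in shRNF113A Cisplatin libraries. A ratio counted as changed at an adjusted p under 0.05 over all genes with at least 10 reads of each type in every library compared. With Cisplatin 0 of 15 genes of the list were called in shControl cells (8.90% of all genes tested, 8.56% higher, edgeR), and 13 of 17 in shRNF113A cells (81.2%), all higher (79.9%). With depletion 3 of 15 were called in untreated cells (56.0%), DDX58, STAT2 and ISG20, and 12 of 19 in treated cells (82.5%), again all higher (55.6% and 82.4%). The median log2 change of the ratio was 0.49 for Cisplatin in shRNF113A cells and 0.68 for depletion in treated cells, against 0.74 and 0.97 over all genes tested.

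In ISG20 the intronic reads came to match the exonic ones. Its intronic reads per 100 exonic reads were 28.4, 14.5 and 22.6 in shControl untreated, 33.6, 16.7 and 41.7 in shControl Cisplatin, 39.5, 48.1 and 30.3 in shRNF113A untreated and 104, 98.6 and 95.2 in shRNF113A Cisplatin libraries. The last group lay above all the others, at a log2 change of 1.79 (SE 0.28, adjusted p = 2.14e-05) for depletion in treated cells. For TRIM21 the mean ratio was 3.92% ± 1.00 (SD, n = 3) in shControl and 8.93% ± 0.39 in shRNF113A cells with Cisplatin, and for IFI6 it was 5.66% ± 2.88 and 15.2% ± 2.82. OAS1, whose exonic counts rose with depletion, had 12.05, 10.3 and 12.5 intronic reads per 100 exonic ones in shControl untreated and 12.5, 13.5 and 11.4 in shRNF113A untreated libraries, and this ratio did not pass the test there (log2 change 0.10, SE 0.13). The count of called genes for depletion in treated cells was 7 without shControl Cisplatin replicate 1 and 6 without shRNF113A Cisplatin replicate 2. For Cisplatin in shControl cells it was 3 without shControl Cisplatin replicate 2. The shares of all genes under these alternatives are not given.

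**Figure D5:**
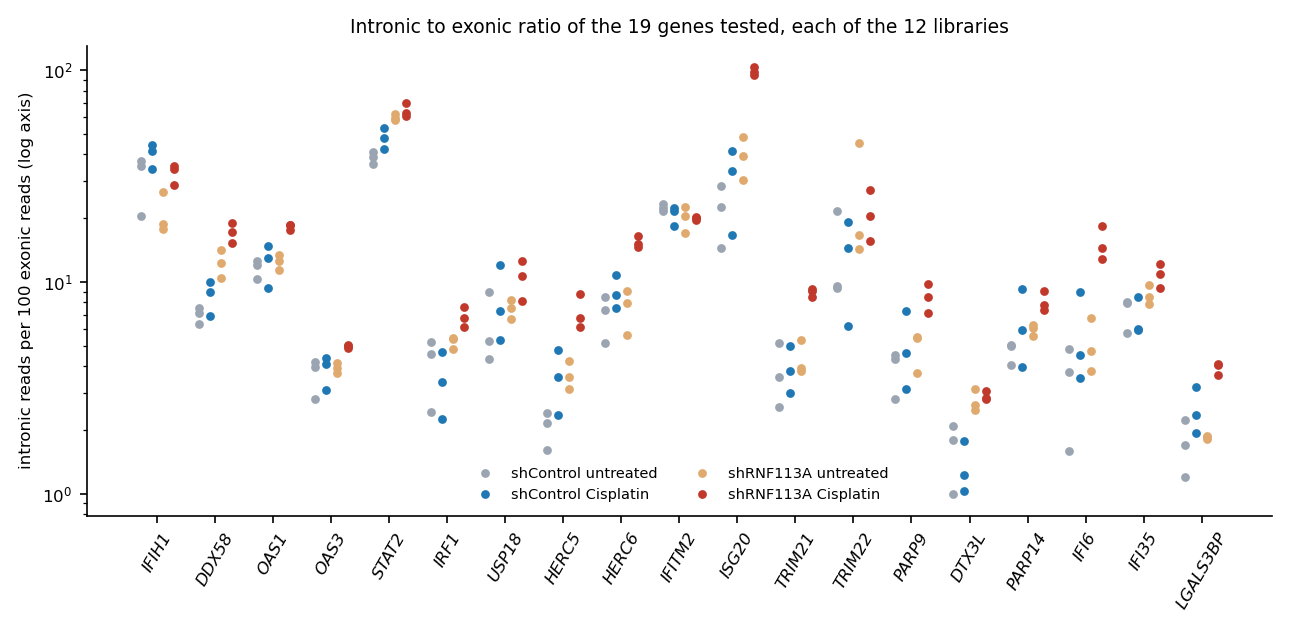
Intronic reads per 100 exonic reads (vertical, log axis) of the 19 genes tested, each point 1 of the 12 libraries, coloured by condition. The shRNF113A Cisplatin libraries (red) are highest for ISG20, TRIM21, OAS1, HERC6 and IFI6, while IFITM2 and IFIH1 show no such order.

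Splicing events were tested on the inclusion and skipping reads, and called at an adjusted p under 0.05 and a difference in mean inclusion of at least 20 percentage points. In 3 comparisons no event of the list was called: 0 of 100 events with Cisplatin in shControl cells (0.0681% of all events), 0 of 134 with Cisplatin in shRNF113A cells (0.283%) and 0 of 119 with depletion in untreated cells (0.0580%). With depletion in treated cells 1 of 125 events was called (0.172%), a retained intron of IRF7. At the adjusted p alone 0, 3, 2 and 3 events passed in these 4 comparisons (0.529%, 2.61%, 0.906% and 2.32% of all events), and at an unadjusted p under 0.05 there were 4, 7, 4 and 12 (6.15%, 10.2%, 5.63% and 9.65%). The IRF7 intron, of 85 bases (chromosome 11, minus strand, 615260 to 615344, hg19), is intron 2 of the canonical transcript with 11 exons and is present in 8 of the 17 annotated transcripts. Its ends are shown in the direction of transcription, with the dinucleotides of the splice sites in capitals.
donor: ctcctgagagGTaagagcccggcccaccct
acceptor: ccgcggccgggcacccgcAGggcagcccca
They lie at chr11:615325-615354 and chr11:615250-615279 (GRCh37, minus strand). The inclusion level, the share of the retained form after dividing the reads by the length of each form, was 29.5% ± 4.97 (SD, n = 3) in shControl and 61.5% ± 4.32 in shRNF113A cells with Cisplatin, a difference of 32.0 points (adjusted p = 0.0119, edgeR's quasi-likelihood test). The 3 shControl libraries held 13, 18 and 13 inclusion reads against 11, 22 and 17 skipping reads, and the 3 shRNF113A ones 56, 42 and 61 against 13, 13 and 20. These reads are not scaled to depth, and the size factors were 1.05 to 1.31 for the shControl and 0.763 to 0.92 for the shRNF113A Cisplatin libraries. Without 1 of the shRNF113A Cisplatin libraries, the first in the order of the splicing tables, the event was no longer called and the count was 0. An intron of IRF9 (chromosome 14, 24633344 to 24633822, 479 bases) rose with depletion in untreated cells from 19.2% ± 2.13 to 37.4% ± 4.90 (adjusted p = 0.0162), under the limit of 20 points.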

How the data were processed

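RNA of A549 cells was measured in 12 stranded mRNA libraries (TruSeq). The authors aligned the reads to hg19 with STAR 2.5.2b and deposited raw counts of read pairs per gene; the counts on the gene's strand were used. They also deposited HTSeq counts of exonic and whole-gene reads, and splicing tables whose raw counts of inclusion and skipping reads were retested. The authors' p-values, FDR and inclusion differences in those tables, and their isoform comparisons, were not used. Gene counts were tested with edgeR 4.0.16 (R 4.3.3): filterByExpr, TMM scaling, one model of the 4 groups, quasi-likelihood test, Benjamini-Hochberg adjustment. Intronic against exonic reads and inclusion against skipping reads were compared in edgeR by models holding one term per library. Normalised counts used the size factors of DESeq2 1.42.0. SE is the standard error of a log2 fold change.

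The members and gene lists were chosen with earlier results of these data known. All members were accounted for, with counts per library for those called in any of the 5 comparisons, and genes of the other lists were named where called. A gene of the list of production and signalling genes and a promoter sequence are not reported here. The study describes its replicates as biological. The pairing of replicate numbers was checked by correlating deviations from the group means over 11761 genes. For Cisplatin in shControl cells they correlated at 0.62, 0.74 and 0.48, all over the limit of 0.1. Replicates 1 and 3 also correlated with each other, at 0.54 and 0.53. The pattern thus sets replicate 2 apart and does not tie 1 to 1 and 3 to 3. For the other comparisons the correlations were not all over the limit. The reported tests hold no replicate term, and pairing enters only through the alternative with the replicate block. On simulated data 84.7% of genes changed by 1.5 on the log2 scale and 96.9% of those changed by 3 were recovered (Cisplatin in shControl cells, 15352 genes). The test of intronic against exonic reads recovered 59% of genes changed by 1 and 98% of those changed by 2 (depletion in untreated cells). Smaller changes of this ratio could thus be missed. That simulation gave every gene the same fixed spread and no shift common to all genes. In the libraries the median log2 change of the ratio was 0.47, so the recovery there may differ. The depth was 26220526 to 45721152 counted reads per library. Intervals and floors cover counting error only.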

Additional observations from a re-analysis of the deposited data

Results flagged for a closer look

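In 3 genes the Cisplatin effect differed between shRNF113A and shControl cells by the interaction term of the model (adjusted p under 0.05, edgeR). They were found among the 37, 30 and 35 genes tested of the 3 lists. Of all 15352 genes tested, 4.25% passed the same limit. The log2 difference was −0.70 (SE 0.16, adjusted p = 0.0314) for OAS1, a member of the list whose counts fell with Cisplatin in shRNF113A cells and not in shControl cells. For DHX58 it was 2.31 (SE 0.58, adjusted p = 0.0453) and for TLR3 it was −1.21 (SE 0.22, adjusted p = 0.0159), both from the list of production and signalling genes. DHX58 passed the filter on low counts only through its Cisplatin libraries. The difference for TLR3 kept its call in 22 of 22 alternatives and that of DHX58 in 9 of 21. The difference for OAS1 is under 2-fold and so was not called, and its adjusted p stayed under 0.05 in 16 of 22.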

How the results depend on the processing

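Of 216 counts of members recomputed under alternatives, 201 stayed within 1.5 times the reported count. Of 1109 log2 fold changes of members, 1081 kept their call, 28 lost it and none turned, and of 2237 of the other listed genes 123 lost it and none turned. With a 1.5-fold limit, depletion changed 9 genes in treated cells and 9 over both treatments, and the interaction 1. Leaving out each library in turn gave 12 to 14 genes for Cisplatin in shControl cells, 13 to 15 in shRNF113A cells and 12 to 14 over both, and 2 to 5 for depletion in untreated cells, 3 to 8 in treated cells and 2 to 5 over both, with 0 for the interaction. For the intronic ratio the ranges were 0 to 3 and 10 to 12 for Cisplatin in shControl and shRNF113A cells, and 3 to 4 and 6 to 17 for depletion in untreated and treated cells. The retained intron of IRF7 gave 0 to 1. Without replicate 2 of the shControl cells in both treatments, an alternative added after the data were seen, depletion changed 5 genes in untreated cells, 7 in treated cells and 9 over both treatments. With at least 1 read of each type, 5 genes had a changed intronic ratio with depletion in untreated cells. With an inclusion limit of 10 points 1 splicing event was called there. The cause of these differences was not tested, beyond the looser limits. No share of all genes stands beside these counts, so they are not shown to be particular to the list.

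With the replicate block, 13 genes were called for Cisplatin in shControl cells, where IFITM1 (log2 −1.56, SE 0.49, edgeR adjusted p = 0.0115) was added. The fall of IFITM1 rests on shControl untreated replicate 2. In shRNF113A cells 14 genes were called, with 3 and 4 for depletion, 0 for the interaction, and 13 and 3 over both. The pairing moved no count by over 1.5 times. Samples of the same number correlated at 0.37, −0.017 and 0.31 for Cisplatin in shRNF113A cells, at −0.0057, 0.048 and 0.16 for depletion untreated and at −0.15, 0.11 and 0.025 for depletion with Cisplatin. For splicing, no paired analysis was possible because the order of the libraries in the tables is not named. Genes with fewer than 3 reads in a library were not detectable at this depth.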
